A study of Mus musculus with 11 samples.

Results

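Heat shock genes encode molecular chaperones, and 10 of them, Hspa1a, Hspa1b, Dnajb1, Hsph1, Hspa8, Hsp90aa1, Hspb1, Hspa5, Hspd1 and Hspe1, were followed across mesenchymal cells of the mouse liver. The 10 genes were taken by symbol from the 27998 genes of the 10x table, not by their level in any library. All cells came from male C57BL/6 mice, 10 to 16 weeks old, that carried Pdgfrb-BAC-eGFP, a transgene that places eGFP under the regulatory sequence of the mesenchymal receptor gene Pdgfrb, and cells were sorted as GFP+ CD45- CD102-. Cells were freed by 1 of 2 digestion routes: PF (here protocol 1), in which perfused liver was minced and digested ex vivo with pronase and collagenase B, and HSC (here protocol 2), in which pronase and collagenase D were perfused through the liver and the cells were then enriched on a density gradient.

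The 10x libraries held single cells with unique molecular identifiers (UMIs), and each pooled 3 mice. There was 1 library each of uninjured mice by protocol 1, of mice given carbon tetrachloride (CCl4, a toxin of centrilobular hepatocytes) for 6 weeks by protocol 1, of uninjured mice by protocol 2, of mice 72 h after a single injection of CCl4 by protocol 2, and of mice given CCl4 for 6 weeks by protocol 2. Mice of the 72 h group had fasted overnight before the injection, and the 6-week groups were harvested 48 h after the last injection. The Smart-seq2 plates held full-length libraries, 1 cell to a well. In plates 1, 2 and 4, wells of mice 14 days after bile duct ligation (BDL) stood beside wells of 1 uninjured mouse. Plates 3 and 5 held wells of mice given CCl4 for 6 weeks beside wells of 1 uninjured mouse, all by protocol 1. Plate 6 held 3 uninjured mice, 1 by protocol 1 and 2 by protocol 2, and its labels do not say which is which.

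Chaperones bind unfolded or newly made proteins. When proteins unfold, heat shock factor HSF1 is released from chaperones, binds heat shock elements and switches on the inducible genes within minutes to hours; the endoplasmic reticulum (ER) has its own sensors, which act through the ER stress response element. In the liver, these genes are known to respond to toxins, heat and cell isolation, and warm enzymatic digestion alone can raise the inducible genes together with immediate early genes such as Fos, Jun and Egr1.

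Hspa1a and Hspa1b encode near-identical copies of inducible HSP70, so reads of the 2 genes could be split between them in error and their sum was also followed. The longest open reading frames of the 2 GENCODE transcripts were 1926 bases for Hspa1a and 1929 for Hspa1b. They matched at 1918 bases and differed at 8, an identity of 99.6% with the gap in length not counted. On GRCm38 the copies lie side by side on the minus strand, Hspa1b at chr17:34956436-34959238 and Hspa1a at chr17:34969190-34972156. The 200 bases before their RefSeq start sites are shown in the direction of transcription, because these genes had among the lowest ratios 72 h after CCl4, beside the same window of Dnajb1, whose product is the HSP40 partner of HSP70. Capitals mark the 2-unit heat shock element, searched as GAANNTTC or TTCNNGAA on both strands, on RefSeq build GRCm38.p6.
Hspa1a (chr17:34972157-34972356, minus strand): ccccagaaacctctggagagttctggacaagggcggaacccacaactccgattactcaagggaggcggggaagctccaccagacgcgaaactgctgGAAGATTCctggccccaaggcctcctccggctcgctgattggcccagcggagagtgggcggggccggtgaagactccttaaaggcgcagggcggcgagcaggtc
Hspa1b (chr17:34959239-34959438, minus strand): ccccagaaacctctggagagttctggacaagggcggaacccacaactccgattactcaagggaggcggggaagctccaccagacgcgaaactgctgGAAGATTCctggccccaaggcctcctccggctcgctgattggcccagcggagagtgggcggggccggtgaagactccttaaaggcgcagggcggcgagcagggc
Dnajb1 (chr8:83607975-83608174, plus strand): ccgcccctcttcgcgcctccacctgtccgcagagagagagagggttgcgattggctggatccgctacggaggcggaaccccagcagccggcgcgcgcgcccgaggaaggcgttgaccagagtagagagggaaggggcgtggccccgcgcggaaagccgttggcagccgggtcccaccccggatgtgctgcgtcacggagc
The windows of Hspa1a and Hspa1b were identical at 199 of 200 bases and held the element from -104, while these letters were not in the window of Dnajb1. A 2-unit element lay in 10.4% of 32851 RefSeq promoter windows of the same length.

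Shorter sites of 30 bases show how the other genes differ before their start sites, with the matching letters again in capitals.
Hsph1 (chr5:149636351-149636380, minus strand): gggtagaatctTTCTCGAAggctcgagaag
Hspb1 (chr5:135887801-135887830, plus strand): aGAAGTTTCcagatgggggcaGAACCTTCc
Hspe1 (chr1:55088053-55088082, plus strand): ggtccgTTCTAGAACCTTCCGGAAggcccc
Hspa5 (chr2:34772020-34772049, plus strand): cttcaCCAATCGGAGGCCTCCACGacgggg
Hsph1, which encodes the HSP110 exchange factor of HSP70, held 1 element from -33, and Hspb1, which encodes the small heat shock protein HSP27, held 2, from -117 and -97. Hspd1 (HSP60) and Hspe1 (HSP10), the mitochondrial chaperonin and its lid, are transcribed away from each other, and the site shown for Hspe1 is also before a start site of Hspd1 on the other strand. It held 3 overlapping 2-unit matches and the 3-unit element (GAANNTTCNNGAA or TTCNNGAANNTTC), which was in 0.371% of windows. The capitals in Hspa5, which encodes the ER chaperone BiP, mark the ER stress response element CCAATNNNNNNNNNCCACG from -65, in 0.103% of windows. A match is a description of the letters. The last 2 genes, Hspa8 (the constitutive cytosolic HSP70) and Hsp90aa1 (the inducible form of HSP90), are given without a sequence.

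After filtering, the 10x libraries held 5454 to 7310 cells with 25965670 to 86664085 UMIs, a median of 4300 to 11344 UMIs and 1.75 to 3.2% mitochondrial UMIs per cell, and pairs of libraries shared 33 to 74 cell barcodes. Clustered without the heat shock genes, the protocol 1 cells split into fibroblast-like (FB-like) and vascular smooth muscle-like (VSMC-like) classes, and the protocol 2 cells formed a hepatic stellate-like (HSC-like) class, so class and protocol cannot be told apart. In FB-like cells, the summed UMIs per 1000000 UMIs (CPM) of FB markers were 8676 in the uninjured and 9343 in the 6-week library, and in VSMC-like cells those of VSMC markers were 32700 and 29380. HSC markers summed to 24590 CPM in uninjured, 4306 at 72 h and 12150 at 6 weeks in HSC-like cells, so the 72 h library stood apart. Different sub-clusters held most HSC-like cells in the 3 libraries. Smart-seq2 portions (the wells of 1 mouse on 1 plate) held 20999176 to 96347394 reads. With 1 library per 10x group, differences between 10x libraries have no replicate check and no test, and their intervals cover counting error only.

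**Figure D1:**
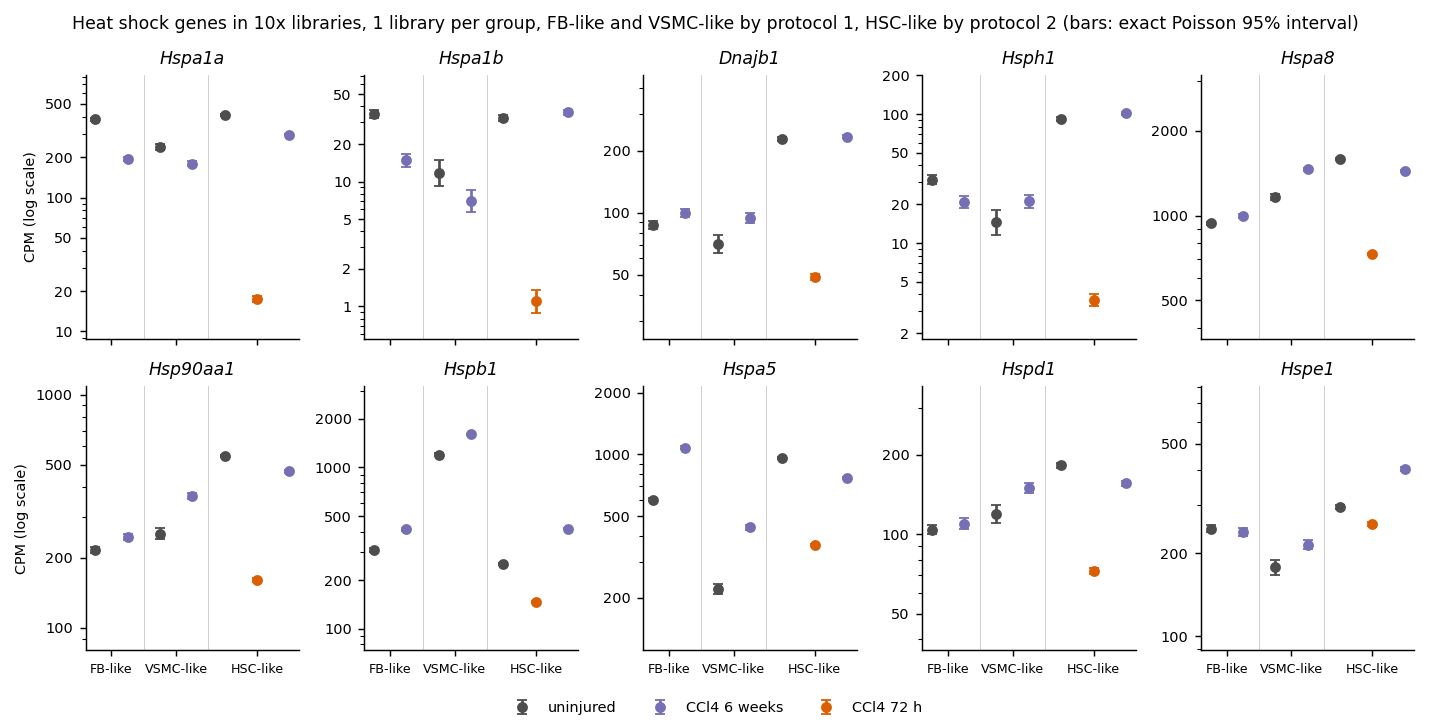
Level of each heat shock gene in CPM (log scale) in FB-like, VSMC-like and HSC-like cells of the 5 10x libraries, with exact Poisson 95% intervals as bars. The 72 h point of HSC-like cells lies lowest of all 7 groups for 8 of the genes, Hspa1a at 17.58 and Hsph1 at 3.619 CPM among them, whereas the 72 h values of Hspe1, 255.3 CPM, and Hspa5, 362.9 CPM, lie above those of uninjured VSMC-like cells.

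HSC-like cells taken 72 h after CCl4 held far fewer UMIs of Hspa1a, Hspa1b, Hsph1 and Dnajb1 than uninjured HSC-like cells. Hspa1a was at 414.3 CPM in uninjured, 17.58 at 72 h and 295.2 at 6 weeks. The 72 h level was 0.0424 times that of uninjured cells (exact conditional 95% interval 0.0402 to 0.0447), or 23.6-fold lower. Hspa1b was at 32.33, 1.099 and 36.04 CPM, which put its 72 h level 29.4-fold lower. The sum of both copies was 446.6, 18.68 and 331.2 CPM, so the difference did not turn on how reads were split between them.

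The exchange factor and the HSP40 partner of HSP70 were low in the same library. Hsph1 was at 91.55 CPM in uninjured, 3.619 at 72 h and 101.4 at 6 weeks, a 72 h ratio of 0.0395 (0.0351 to 0.0444). Dnajb1 was at 227.0, 48.86 and 233.6 CPM, a ratio of 0.215 (0.208 to 0.223). For both genes the uninjured and 6-week libraries were close together and the 72 h library alone was low.

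The other 3 cytosolic genes, the inducible HSP90 and the small heat shock protein HSP27 among them, were lower in CPM at 72 h as well, by less. CPM is a share of all UMIs, and the median cell held 11347 UMIs at 72 h against 6718 in uninjured. A modestly lower CPM therefore need not mean fewer UMIs of the gene per cell. Hsp90aa1 was at 544.6 CPM in uninjured, 160.3 at 72 h and 469.1 at 6 weeks, 3.40-fold lower at 72 h. Hspa8 was at 1584, 730.0 and 1438 CPM, 2.17-fold lower. Hspb1 was at 252.4, 146.7 and 418.0 CPM, 1.72-fold lower at 72 h and highest at 6 weeks. In the ER, Hspa5 was at 961.7, 362.9 and 770.0 CPM, 2.65-fold lower. Of the mitochondrial pair, Hspd1 was at 182.5, 72.71 and 156.1 CPM, 2.51-fold lower, whereas Hspe1 was at 293.7, 255.3 and 404.4 CPM, and its ratio at 72 h was 0.869 (0.851 to 0.888). The pair that shares a promoter region therefore did not share its ratio.

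In all, 9 of the 10 genes passed a limit of 1.5-fold toward lower levels at 72 h and none toward higher, against 26.4% of 6230 genes lower and 13.3% higher. Genes needed at least 20 CPM in the higher group to be counted. The median ratio was 0.336 over the 10 genes and 0.862 over all genes counted. When both libraries were scaled so that the median gene had a ratio of 1, the share of all genes past the limit was 18.3% lower and 18.0% higher, 9 of the heat shock genes still passed toward lower levels, and the ratio of Hspe1 was 0.971. The direction of no heat shock gene flipped at 72 h under that scaling.

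**Figure D2:**
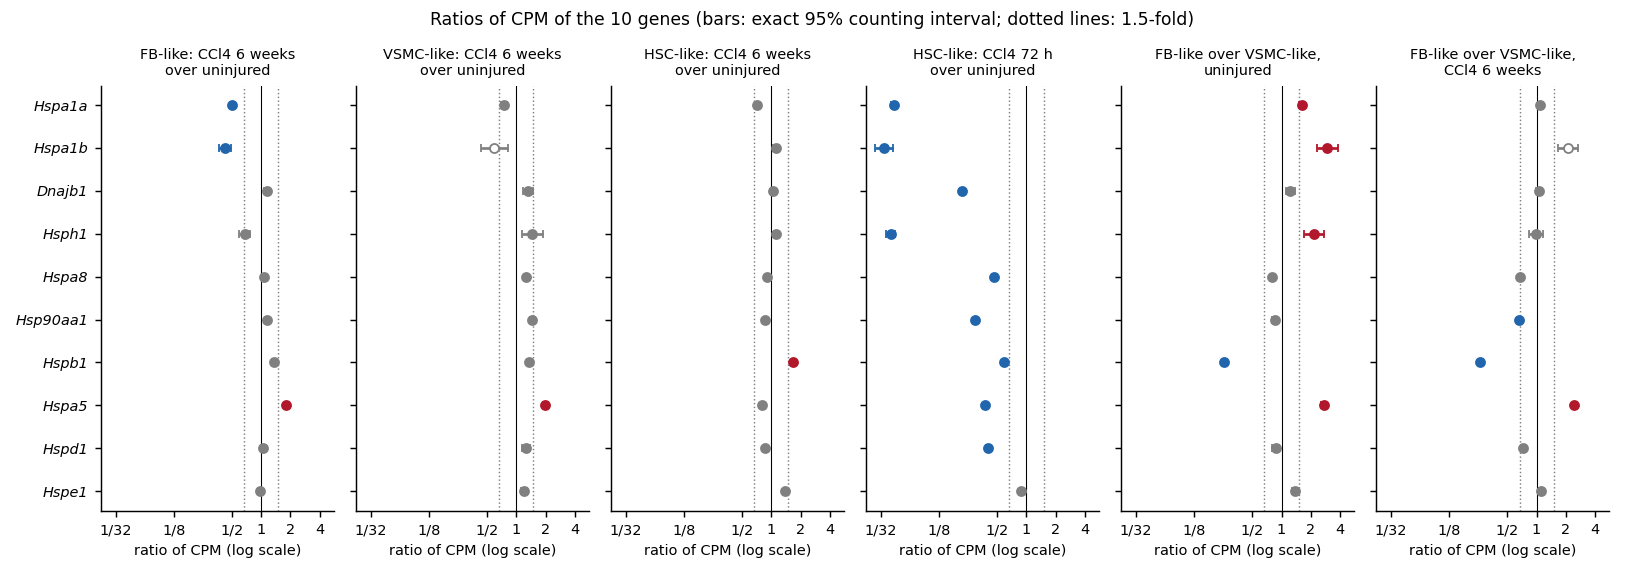
Ratios of CPM of the 10 genes in 6 comparisons of 10x groups on a log scale, with exact 95% counting intervals as bars and dotted lines at 1.5-fold; blue and red points lie past the limit toward lower and higher levels, and open points were under 20 CPM in both groups. The 72 h panel has 9 genes past the limit toward lower levels, with Hspa1a, Hspa1b and Hsph1 farthest out at 0.0424, 0.0340 and 0.0395.

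A UMI of Hspa1a, Hsph1 or Dnajb1 was found in fewer cells at 72 h, although these cells held more UMIs in all. Free RNA can place a UMI in a cell that does not express the gene, and no cell class that should lack these genes was at hand to give a background share, so the shares are of cells with a UMI. An Hspa1a UMI was found in 62.0% of uninjured, 12.1% of 72 h and 62.6% of 6-week HSC-like cells, whose median depths were 6718, 11347 and 9887 UMIs. After each cell was thinned to 2000 UMIs, the shares were 37.3, 2.93 and 30.9%. Hsph1 was found in 40.5, 4.02 and 52.7% of cells, and in 15.4, 0.603 and 17.1% after thinning. Dnajb1 was found in 62.8, 35.9 and 74.5%, and in 30.6, 7.73 and 33.4% after thinning. The shares at 72 h were lowest for all 3 genes with and without thinning.

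The low level at 72 h was found in every sub-cluster of HSC-like cells with at least 100 cells. The summed level of Hspa1a and Hspa1b ran from 416.3 to 586.4 CPM over 4 sub-clusters of uninjured cells, from 8.71 to 38.08 CPM over 6 at 72 h, and from 267.9 to 396.2 CPM over 4 at 6 weeks. Hsph1 ran from 83.17 to 98.8 CPM in uninjured, from 2.546 to 4.383 CPM at 72 h and from 84.06 to 128.3 CPM at 6 weeks. Dnajb1 ran from 170.5 to 232.9 CPM, from 32.53 to 64.04 CPM and from 185.6 to 290.2 CPM. For these genes the highest sub-cluster at 72 h lay below the lowest of the other libraries. Sub-clusters of a library are not replicates, and how many other genes had such ranges was not counted. The ranges of Hspb1 overlapped, at 235.2 to 626.6 CPM in uninjured and 61.68 to 253.1 CPM at 72 h, and so did those of Hspe1, at 287.8 to 333.0 and 215.1 to 335.6 CPM.

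The 72 h sub-clusters differed among themselves by gene. The sub-cluster led by cell-cycle genes such as Ccnb1, Cenpf and Top2a (1165 cells) had the lowest summed Hspa1a and Hspa1b of the 6, 8.71 CPM (95% interval 7.409 to 10.17). It also had the highest Hsp90aa1, 294.2 CPM (286.4 to 302.2), Hspa8, 858.7 CPM (845.3 to 872.3), and Dnajb1, 64.04 CPM (60.42 to 67.82). The smallest one, led by the acute-phase genes Saa3, Lcn2 and Hp (164 cells), had the highest summed Hspa1a and Hspa1b, 38.08 CPM (30.85 to 46.5), and the highest Hspb1, 253.1 CPM (233.8 to 273.5). The interval of the lowest summed level overlapped that of 1 other sub-cluster, as did that of the highest Dnajb1, and the intervals of Hsph1 overlapped among all 6. These are levels of 1 library, and uninjured and 6-week cells lay mostly in other sub-clusters. Only 1 sub-cluster held at least 100 cells of every HSC-like library, with 108 uninjured, 326 72 h and 1097 6-week cells. Hspb1 was at 626.6 CPM in its uninjured, 61.68 in its 72 h and 346.9 in its 6-week cells, and Hspa8 at 1457, 429.6 and 1212 CPM. For the other 72 h sub-clusters, the library and the sub-cluster cannot be told apart.

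UMIs of the other chaperones were found in larger shares of the 72 h cells. Hspa8 was found in 99.2% of uninjured and 96.8% of 72 h cells, and in 92.5 and 70.3% after thinning. Hspa5 was found in 97.6 and 90.2%, and in 82.26 and 48.03% after thinning. Hsp90aa1 had 88.4 and 69.5%, or 59.9 and 24.1% after thinning, and Hspd1 had 65.7 and 52.0%, or 29.2 and 12.8%. Hspe1 had 79.1 and 87.9%, or 42.9 and 38.9% after thinning, and its share before thinning thus went against its CPM. All 5 thinned shares were lower at 72 h, with Hspe1 nearest to its uninjured share.

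Several other lists of the heat shock pathway held many genes with low ratios at 72 h. Of 21 other HSF1-linked chaperones and co-chaperones with enough UMIs, 13 passed the limit toward lower and 1 toward higher levels, with a median ratio of 0.574, against 26.4% of all genes lower and 13.3% higher. Dnaja1, an HSP40 co-chaperone, went from 768.9 to 178.7 CPM (ratio 0.232) and Dnaja4, of the same family, had a ratio of 0.253, while Bag1, a nucleotide exchange factor of HSP70, was higher at 1.66. Of 16 other ER chaperones and stress genes, 8 were lower and none higher (median 0.688), led by Herpud1, a gene of ER-associated degradation, at 0.277 and Ddit3, which encodes the stress factor CHOP, at 0.336. Of 6 other mitochondrial chaperones, 4 were lower (median 0.575), with Hspa9, the mitochondrial HSP70, at 0.386 and the mitochondrial HSP90 Trap1 at 0.535.

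Not every chaperone family had low ratios at 72 h. The cytosolic chaperonin TRiC, which folds actin and tubulin, had 2 of 7 subunit genes lower (Cct3 at 0.565 and Cct8 at 0.666) and a median of 1.25, a share near the 26.4% of all genes. The other small heat shock proteins had 2 of 4 higher, with a median of 1.55: Hspb6, a small heat shock protein of muscle, went from 3.88 to 42.72 CPM (ratio 11.01), and Hspb2 had a ratio of 1.98. VSMC markers summed to 594.2 CPM in uninjured, 1992 at 72 h and 994.6 at 6 weeks in HSC-like cells, and their part in the values of the small heat shock proteins was not tested.

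**Figure D3:**
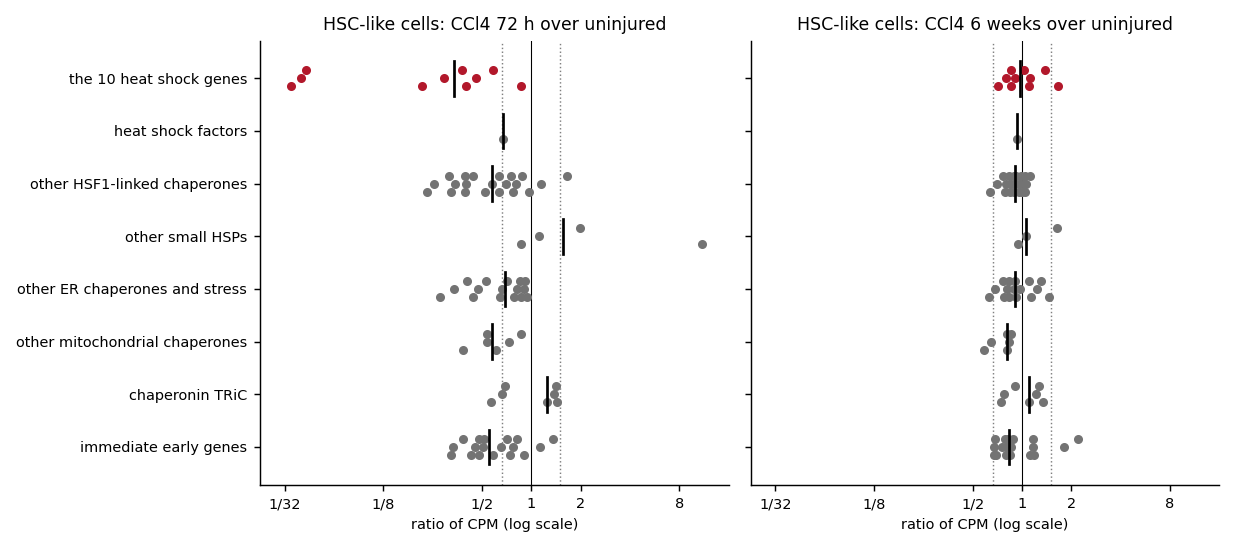
Ratios of CPM in HSC-like cells, 72 h (left) and 6 weeks (right) over uninjured, log scale, for the 10 heat shock genes and the other chaperone and stress lists; each point is a gene with at least 20 CPM in the higher library, black bars are list medians and dotted lines mark 1.5-fold. At 72 h the median of the 10 genes was 0.336 and that of TRiC 1.25, and at 6 weeks the median of the 10 genes was 0.968.

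Immediate early genes, which digestion is known to raise, moved with the heat shock genes in part. Their summed level was 17900 CPM in uninjured, 10160 at 72 h and 14960 at 6 weeks in HSC-like cells, and 11 of 18 passed the limit toward lower levels at 72 h, with a median ratio of 0.550 and none toward higher, against 26.4% and 13.3% of all genes. Dusp1, a MAP kinase phosphatase, was at 0.326 and the transcription factor gene Klf4 at 0.335. Across single uninjured HSC-like cells, the summed Hspa1a and Hspa1b level had a Pearson correlation of 0.106 with the mean level of these genes, and of 0.126 at 72 h and 0.0677 at 6 weeks. For Dnajb1 the values were 0.238, 0.109 and 0.109, for Hspa8 0.211, 0.212 and 0.189, and for Hspa5 0.158, -0.0552 and 0.177. In the uninjured and 6-week libraries of protocol 1, the HSP70 sum had -0.0298 and 0.111 in FB-like cells. In VSMC-like cells it had -0.0237 and 0.0326. These weak correlations within sparse counts are a description. Markers of hepatocytes summed to 48.78, 30.1 and 41.54 CPM, those of endothelial cells to 59.34, 28.5 and 81.32 CPM and those of leucocytes to 3.686, 13.47 and 10.42 CPM in the 3 libraries. FB markers summed to 30.5, 285.6 and 522.8 CPM and mesothelial markers to 1.099, 34.17 and 38.18 CPM, with 4, 4 and 3 of the 5 mesothelial markers at 0. The median mitochondrial share was 1.75, 2.75 and 1.75%, highest at 72 h. The part of these markers, of the mitochondrial share, of isolation stress, of fasting or of the cells' state in the 72 h levels was not tested, and with 1 library of pooled mice per group it cannot be told apart from the condition.

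After 6 weeks of CCl4, Hspa1b, Hsph1 and Dnajb1 of HSC-like cells were near their uninjured levels in CPM. Of the 10 genes, 1 passed the limit, Hspb1 at 1.66 (1.62 to 1.69), against 6.19% of 6011 genes higher and 11.3% lower. Hspe1 had a ratio of 1.38, Hspa1b of 1.11, Hsph1 of 1.11 and Dnajb1 of 1.03. Hspa1a was at 0.713, the lowest ratio of the 10 genes. The median was 0.968 over the 10 genes and 0.857 over all genes. Scaled to a median gene of 1, Hspb1 was at 1.91 and Hspe1 passed the limit at 1.58, and Hspa8 flipped from 0.908 to 1.05. Hspa1b was then at 1.283, Hsph1 at 1.275 and Dnajb1 at 1.185, all within the limit. The share of all genes past the limit under this scaling was 9.48% higher and 4.14% lower.

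Few genes of the wider lists passed the limit in 6-week HSC-like cells, against 11.3% of all genes lower and 6.19% higher. Of 21 other HSF1-linked genes, 20 were within it, with a median of 0.910. Among other ER genes 1 of 16 was lower (the lectin chaperone Canx, 0.633), whereas among other mitochondrial chaperones 2 of 6 were lower (Trap1, 0.587, and Hspa9, 0.642), with a median of 0.809. Hspb2 was the single other small heat shock protein past the limit, at 1.63. Of 18 immediate early genes 2 were higher, the nuclear receptor gene Nr4a1 at 2.20 and the transcription factor gene Egr2 at 1.80. No TRiC subunit passed the limit.

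In FB-like cells after 6 weeks of CCl4, inducible HSP70 was lower and the ER chaperone Hspa5 higher. Hspa1a went from 384.1 CPM in the uninjured to 193.5 CPM in the 6-week library, a ratio of 0.504 (0.484 to 0.525), and Hspa1b from 34.96 to 14.84 CPM (0.424). Hspa5 went from 602.6 to 1077 CPM, a ratio of 1.79 (1.75 to 1.83). The other 7 genes stayed within the limit: Dnajb1 went from 87.22 to 99.7 CPM, Hsph1 from 31.01 to 20.81 CPM and Hspb1 from 308.1 to 414.5 CPM. Past the limit were 4.67% of 6011 genes toward higher and 1.86% toward lower levels. The immediate early genes summed to 19360 and 17350 CPM in the same cells, with 1 of 17 higher (Dusp1, 1.56) and none lower. In FB-like wells of Smart-seq2 CCl4 portions, which have replicates, Hspa5 had a log2 fold change of -0.0090 ± 0.39 and Hspa1a of -0.068 ± 0.93 (SE).

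Few other chaperones of FB-like cells passed the limit at 6 weeks. None of 20 other HSF1-linked genes, none of 6 mitochondrial chaperones and none of 7 TRiC subunits did. Manf, a secreted ER stress protein, was 1 of 16 other ER genes past it, at 1.51, and the median of those 16 was 1.02. Hspb7, a small heat shock protein of muscle, was higher at 2.88. VSMC markers summed to 608.0 CPM in uninjured and 1635 CPM in 6-week FB-like cells, and their part in the 6-week values was not tested.

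In the 6-week VSMC-like cells Hspa5 was higher too, and it was the 1 gene of 9 past the limit. Hspa5 went from 221.9 to 440.9 CPM, a ratio of 1.99 (1.87 to 2.11). Hspa1a went from 238.1 to 178.6 CPM (0.750), Dnajb1 from 70.73 to 93.84 CPM (1.33), Hsph1 from 14.46 to 21.14 CPM (1.46) and Hsp90aa1 from 253.5 to 368.8 CPM (1.46). Hspb1 went from 1200 to 1602 CPM (1.33). Hspa1b, at 11.82 and 7.023 CPM, was under the minimum. The median was 1.29 over the genes counted and 1.03 over all genes, of which 6.9% of 5880 passed the limit toward higher and 2.43% toward lower levels. Immediate early genes summed to 23320 CPM in uninjured and 17840 CPM in 6-week VSMC-like cells, with 3 of 17 lower, among them Btg2 at 0.574 and Fosb at 0.582. Hspa9 (1.51), the mitochondrial protease gene Lonp1 (1.53), the ER disulphide isomerase gene Pdia4 (1.5) and Hspa2 (1.55), an HSP70 best known from the testis, were the other listed genes past the limit, all higher.

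The higher Hspa5 of the protocol 1 6-week library was seen in the sub-clusters of both classes. Over 3 sub-clusters of FB-like cells it ran from 583.4 to 657.7 CPM in the uninjured and from 901.2 to 1259 CPM in the 6-week library, and over 3 of VSMC-like cells from 170.3 to 371.6 CPM and from 376.0 to 706.9 CPM. The ranges did not overlap in either class, but in VSMC-like cells they nearly met, at 371.6 and 376.0 CPM. Sub-clusters are cells of 1 library per condition and not replicates. How many other genes had ranges apart was not counted. Summed Hspa1a and Hspa1b in FB-like cells ran from 341.6 to 496.0 CPM in uninjured and from 146.8 to 293.6 CPM at 6 weeks, again without overlap. In VSMC-like cells the same sum ran from 202.9 to 371.6 CPM and from 170.0 to 206.5 CPM, with overlap.

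Shares of cells gave the same order in FB-like cells. An Hspa1a UMI was found in 53.7% of uninjured and 46.4% of 6-week FB-like cells, and in 36.3 and 24.6% after thinning. For Hspa5 the shares were 81.0 and 91.9%, and 59.6 and 75.6% after thinning. In VSMC-like cells Hspa5 was found in 44.5 and 72.3%, and in 31.3 and 51.9% after thinning. Hspa1a was found in 40.4 and 42.3% of VSMC-like cells, against the order of its CPM, and in 29.4 and 25.5% after thinning.

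Within the libraries of protocol 1, where both classes came from the same mice and the same digestion, Hspb1 and Hspa5 set FB-like and VSMC-like cells apart in opposite directions. In the uninjured library Hspb1 was at 308.1 CPM among FB-like cells and 1200 CPM among VSMC-like cells, a ratio of 0.257 (0.248 to 0.266), and in the 6-week library the ratio was 0.259. Hspa5 was higher in FB-like cells, at a ratio of 2.72 (2.56 to 2.88) in the uninjured and 2.44 in the 6-week library. Hspa1a (1.61), Hspa1b (2.96) and Hsph1 (2.14) were also past the limit toward FB-like cells in the uninjured library. At 6 weeks Hspa1a was within the limit (193.5 against 178.6 CPM), and Hsp90aa1 was past it toward VSMC-like cells at 0.664 (0.670 and within the limit when scaled to a median gene of 1). The background was 27.2% of 6418 genes higher and 18.5% lower in FB-like cells of the uninjured library, and 23.7% and 20.4% of 6549 genes at 6 weeks. Of the heat shock genes, 4 of 10 were higher and 1 lower in the uninjured library, and 1 of 9 higher and 2 lower at 6 weeks. These shares were not far from the background.

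Most other ER genes lay toward FB-like cells and most other small heat shock proteins toward VSMC-like cells. Of 16 other ER chaperones and stress genes, 14 were past the limit toward FB-like cells in the uninjured library, with a median of 2.92, led by the ER co-chaperone gene Sdf2l1 at 5.45 and the disulphide isomerase gene Pdia6 at 4.14, and again 14 of 16 at 6 weeks with a median of 2.28. Of 5 other small heat shock proteins, 4 were past it toward VSMC-like cells in both libraries, with Hspb6 at 0.0235 and Hspb7 at 0.0490 in the uninjured one, while Hspb8 was at 4.01 toward FB-like cells. The other HSF1-linked genes had 2 of 21 toward VSMC-like cells (Hspa2, 0.201, and the HSP40 gene Dnajb4, 0.376) and none toward FB-like cells.

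Smart-seq2 gave replicates for FB-like and VSMC-like cells that the 10x libraries lacked: 14 portions of plates 1 to 5, 5 uninjured, 5 BDL and 4 CCl4, each from 1 mouse. They held no 72 h group and no HSC-like wells, so the 10x values of HSC-like cells, at 72 h and at 6 weeks, gained no replicate. Reads were summed over the wells of a portion, given as reads per 1000000 reads (RPM) for each gene and tested with the edgeR quasi-likelihood test with plate in the fit. Nothing in the labels says that the mice of a group were raised or operated on separately, so p-values measure the spread between these portions. With plate in the fit, BDL was set against the uninjured portions of plates 1, 2 and 4, and CCl4 against those of plates 3 and 5. All injured portions of a plate were set against its 1 uninjured portion. Fewer cells of a type and less RNA per cell cannot be told apart in sums over all wells.

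In BDL portions most of the 10 genes had low values, but no gene of the 10 passed the adjusted threshold. Dnajb1 was at 446.5, 425.2, 335.3, 256.8 and 291.2 RPM in the uninjured portions of plates 1 to 5. It was at 169.2 and 94.52 RPM in the BDL portions of plate 1, 116.5 and 93.27 RPM in those of plate 2 and 113.1 RPM in that of plate 4. The groups did not overlap (351.0 ± 82.7 against 117.3 ± 30.9 RPM, mean ± SD, n = 5 each). The log2 fold change, which rests on plates 1, 2 and 4 alone, was -1.66 ± 0.27 (SE, edgeR adjusted p = 0.184).

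Hspd1 was at 49.83, 72.74, 57.37, 70.59 and 41.02 RPM in uninjured and at 29.63, 28.43, 34.57, 32.74 and 30.68 RPM in BDL portions. Hspe1 was at 20.03, 38.38, 13.75, 19.37 and 13.5 RPM in uninjured and at 11.73, 8.269, 12.52, 11.88 and 9.871 RPM in BDL portions. Neither gene of the chaperonin pair overlapped between the groups. Log2 fold changes were -0.97 ± 0.21 for Hspd1 (edgeR adjusted p = 0.248) and -1.20 ± 0.31 for Hspe1 (edgeR adjusted p = 0.336). Dnajb1, Hspd1 and Hspe1 were the 3 genes without overlap, against 1.33% of 16650 genes with every BDL portion below every uninjured one.

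The HSP70 copies and Hsph1 overlapped between groups. Hspa1a was at 1639, 433.8, 484.9, 172.8 and 248.0 RPM in uninjured and at 419.4, 289.2, 371.1, 389.7 and 54.6 RPM in BDL portions, and the uninjured portion of plate 1 stood far above the rest. Its log2 fold change was -1.39 ± 0.45 (edgeR adjusted p = 0.464), and -0.78 without that portion. Hsph1 was at 69.52, 174.4, 46.68, 160.0 and 76.44 RPM in uninjured and at 39.82, 29.61, 68.58, 16.51 and 42.94 RPM in BDL portions, with -1.59 ± 0.43 on the log2 scale (edgeR adjusted p = 0.378). Hspa1b, at 6.348 to 74.76 and 3.591 to 39.8 RPM, had -1.29 ± 0.51, and -0.58 without the uninjured portion of plate 1.

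**Figure D4:**
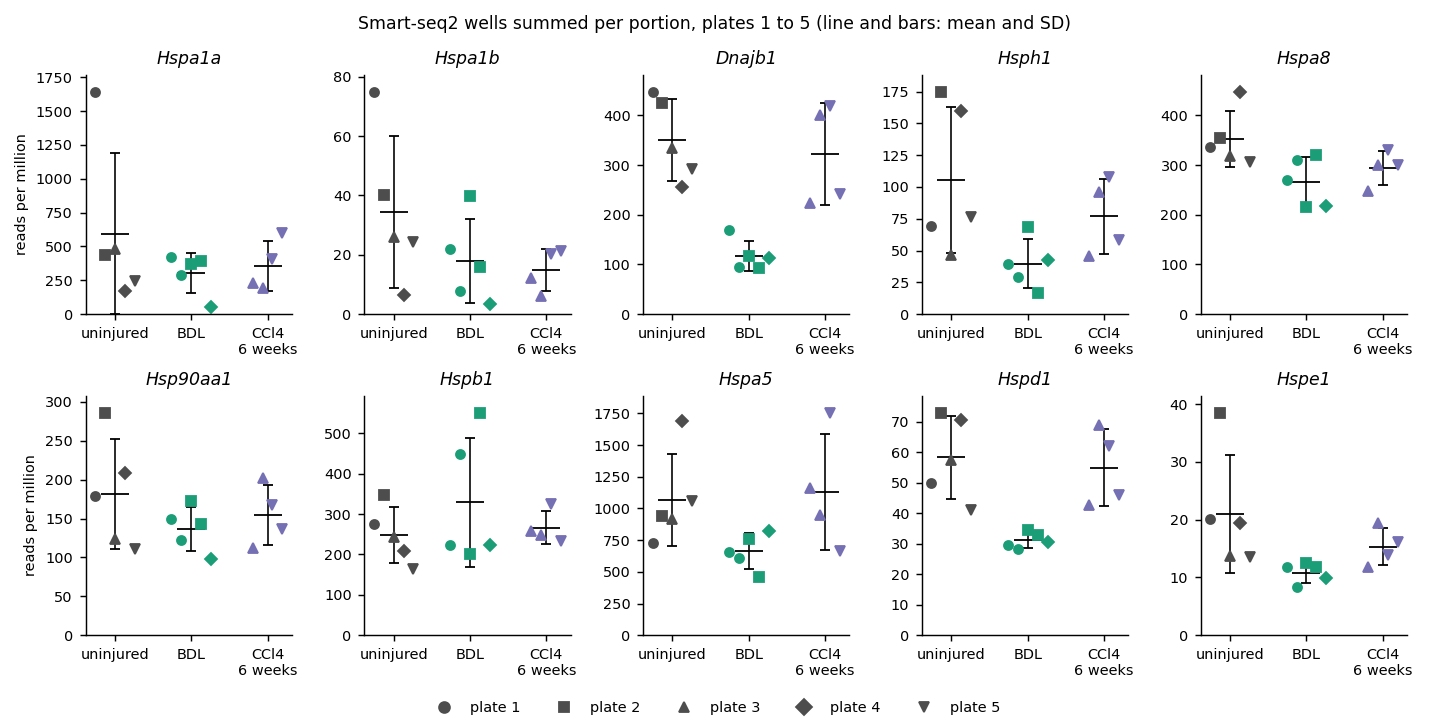
RPM of each heat shock gene in the 14 Smart-seq2 portions of plates 1 to 5, all wells, on linear axes that start at 0; each point is a portion, shapes are plates, and lines and bars are the mean and SD. Dnajb1, Hspd1 and Hspe1 have every BDL portion below every uninjured portion, and the uninjured portion of plate 1 stands apart for Hspa1a at 1639 RPM.

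Over all wells, Hspb1 was the 1 gene of the 10 whose BDL value was not lower. It was at 163.0 to 346.5 RPM in uninjured and 200.5 to 549.3 RPM in BDL portions, with +0.21 ± 0.33 on the log2 scale. VSMC-like wells made up 36.5 to 88.5% of BDL and 48.3 to 64.6% of uninjured portions, and their part in the Hspb1 value was not tested. Hspa8, Hsp90aa1 and Hspa5 overlapped between groups. Hspa8 was at 335.8, 353.7, 317.4, 446.3 and 306.9 RPM in uninjured and at 270.1, 310.6, 214.6, 320.2 and 216.8 RPM in BDL portions (-0.47 ± 0.21, and -0.26 without plate 4 or either of its portions). Hsp90aa1 ran from 110.5 to 285.2 and from 97.52 to 172.6 RPM (-0.72 ± 0.22). Hspa5 was at 730.1, 942.8, 915.3, 1687 and 1058 RPM in uninjured and at 657.5, 607.2, 759.2, 457.4 and 825.8 RPM in BDL portions (-0.54 ± 0.31). Against the uninjured portion of the same plate, 9 of the 10 genes were lower in all 5 BDL portions, which was so for 8.09% of genes, and Hspb1 was lower in 2 of 5. The uninjured portions of plates 1 and 2 each served 2 BDL portions in this count.

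The background of the BDL test was 0.0% of 16650 genes higher and 0.0% lower at an adjusted p under 0.05, so the test called nothing at all. At an unadjusted p under 0.05 it gave 8 of the 10 heat shock genes and 1383 genes, or 8.31%, in all. The median log2 fold change was -1.08 over the 10 genes and 0.0861 over all genes. DESeq2, run on the same design, called 598 genes and 5 of the 10: Dnajb1, Hspd1, Hspe1, Hsph1 and Hspa1a.

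Low BDL values of Dnajb1 and Hsph1 were seen within each class, without a call, whereas those of Hspa1a in FB-like wells were mixed. Against the uninjured portion of the plate, Dnajb1 and Hsph1 were lower in 5 of 5 BDL portions in both classes. Hspa1a was lower in 5 of 5 in VSMC-like wells but in 3 of 5 in FB-like wells. In FB-like wells Dnajb1 was at 271.2 to 669.7 RPM in uninjured and 109.4 to 174.5 RPM in BDL portions (log2 fold change -1.64 ± 0.27, edgeR adjusted p = 0.138), and in VSMC-like wells at 244.2 to 389.7 and 63.03 to 140.7 RPM (-1.57 ± 0.34, edgeR adjusted p = 0.332). Hspa1a had -1.77 ± 0.76 in FB-like wells but -1.06 ± 0.36 in those of the VSMC-like class (-0.73 in both without the uninjured portion of plate 1), and Hsph1 -1.77 ± 0.65 and -1.57 ± 0.36. Hspb1 was at 30.39 to 115.9 RPM in uninjured and 55.45 to 202.4 RPM in BDL portions of FB-like wells (+0.67 ± 0.45), and the groups overlapped. In VSMC-like wells its log2 fold change was +0.057. Cholangiocyte markers in FB-like wells went from a median of 15.26 RPM (10.22 to 25.27) in uninjured to 588.1 RPM (56.86 to 2053) in BDL portions, and in VSMC-like wells from 0.2917 RPM (0.2095 to 2.443) to 2.186 RPM (0.7163 to 5.768). Their part in the BDL values was not tested. FB-like wells had 3 genes without overlap (Dnajb1, Hspa8 and Hspe1), against 1.36% of 14746 genes, and VSMC-like wells had 2 (Dnajb1 and Hspd1), against 1.62% of 14302. In each class 6 of the 10 genes were lower than the uninjured portion of the plate in all 5 BDL portions, against 8.2% of genes for FB-like and 8.66% for VSMC-like wells.

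No heat shock gene passed the adjusted threshold in either class, where edgeR called 0.0% of genes higher and 0.0% lower in FB-like wells and 0.00699% higher and 0.0% lower in VSMC-like wells. Unadjusted, 6 of the 10 and 906 genes (6.14%) were under 0.05 in FB-like wells, and 5 of the 10 and 1000 genes (6.99%) in VSMC-like wells. DESeq2 called Dnajb1 in FB-like wells, among 412 of 14746 genes, and Dnajb1 and Hsph1 in VSMC-like wells, among 435 of 14302. The difference between the classes in their BDL effect, tested as an interaction, was not called for any of the 10 genes (edgeR adjusted p = 1 for each). For Dnajb1 that difference was 0.44 ± 0.40 (SE) on the log2 scale.

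The other lists of the pathway had medians nearer to 0 in BDL portions than the -1.08 of the 10 genes, and that difference was not tested. Of 23 other HSF1-linked genes, 19 had negative log2 fold changes, with a median of -0.41, and the lowest were the HSP90 co-chaperone gene Fkbp4 (-1.07 ± 0.23) and Dnajb4 (-0.92 ± 0.17). Hsf1 itself was at -0.69 ± 0.25 and Hsf2 at -0.45 ± 0.38. The median over all genes was 0.0861, and those of the other lists were -0.01 for other ER genes, -0.07 for other small heat shock proteins, -0.05 for other mitochondrial chaperones and -0.02 for TRiC. None of these genes passed the adjusted threshold.

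The immediate early genes overlapped between BDL and uninjured portions, and none of the 19 passed the adjusted threshold (4 at an unadjusted p under 0.05). They summed to 22060 to 36020 RPM (median 32380) in uninjured and 13910 to 30170 RPM (median 20270) in BDL portions, 17 of 19 had negative log2 fold changes with a median of -0.45, and Egr1 was at -1.06 ± 0.29. Cholangiocyte markers over all wells went from a median of 26.53 RPM (11.47 to 398.8) in uninjured to 1088 RPM (11.41 to 1327) in BDL portions. The part of isolation stress in the BDL values was not tested.

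In the CCl4 portions of plates 3 and 5 the 10 genes had no common direction. Over all wells 7 had positive and 3 negative log2 fold changes, with a median of 0.216, 5 of the 7 positive values turned negative without plate in the fit, and none passed the adjusted threshold, against 0.00601% of genes higher and 0.0% lower. Dnajb1 was at 224.6, 400.5, 419.7 and 241.6 RPM and Hspa1a at 231.3, 192.4, 404.8 and 597.1 RPM, inside the range of the uninjured portions except for 2 low Dnajb1 values. Over all wells, Hspb1 was higher than the uninjured portion of its plate in 4 of 4 CCl4 portions, and Hspa1b lower in 4 of 4. Hspb1 was at 258.9, 248.8, 325.0 and 233.1 RPM there. The uninjured portions of plates 3 and 5 each served 2 CCl4 portions in this count, and the share of all genes with 4 of 4 was not counted. Within FB-like and within VSMC-like wells, Hspb1 was higher in 2 of 4 and Hspa1b lower in 3 of 4. Wells of a cluster without a class name made up 8.94 to 42.0% of the CCl4 portions. In the uninjured portions of plates 3 and 5 they made up 0.84 and 0.0%, and their part in these values was not tested. At an unadjusted p under 0.05 there were none of the 10 and 734 genes in all (4.41%), and DESeq2 called 398 genes and none of the 10.

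By class, the CCl4 medians of the 10 genes were 0.286 in FB-like wells, where 6 were positive, and 0.0172 in VSMC-like wells, where 6 were positive. edgeR called 0.0% of genes in either direction in both classes. Unadjusted, 334 genes (2.27%) and none of the 10 were under 0.05 in FB-like wells, and 468 genes (3.27%) and 1 of the 10 in VSMC-like wells. That gene was Hsph1, at +1.66 ± 0.47 (edgeR adjusted p = 1). DESeq2 called Hsph1 among 257 of 14302 genes, and without plate in the edgeR fit its value was -0.11. Immediate early genes summed to 23430 to 35360 RPM over all wells of the CCl4 portions.

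The 6-week differences of the protocol 1 10x libraries were not called in these portions. Hspa5 in FB-like wells was at 959.9 to 2816 RPM in uninjured and 580.5 to 2106 RPM in CCl4 portions (-0.0090 ± 0.39), and in VSMC-like wells at 485.8 to 784.0 and 366.6 to 778.6 RPM (+0.019 ± 0.28). Hspa1a in FB-like wells was at 182.0 to 2315 and 166.4 to 1254 RPM (-0.068 ± 0.93). Each had an edgeR adjusted p = 1, and in FB-like wells both genes were lower than the uninjured portion of the plate in 2 of 4 CCl4 portions and higher in the other 2.

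Of the genes past the limit between FB-like and VSMC-like cells in the 10x libraries, Hspb1 and Hspa5 were called in Smart-seq2, whereas Hspa1a, Hspa1b, Hsph1 and Hsp90aa1 were not. In uninjured portions Hspb1 was at 115.9, 30.39, 69.18, 75.54 and 36.41 RPM in FB-like wells and at 411.1, 521.6, 372.1, 315.0 and 291.1 RPM in VSMC-like wells of the same mice. The classes did not overlap, and the log2 fold change was -2.56 ± 0.38 (edgeR with the portion as a block, adjusted p = 0.000169). Hspa5 was at 959.9, 1712, 1497, 2816 and 1415 RPM in FB-like wells and at 521.3, 540.1, 485.8, 784.0 and 689.7 RPM in VSMC-like wells. It was higher by 1.52 ± 0.22 on the log2 scale (edgeR adjusted p = 0.000122).

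Over all 14 portions, injured ones included, Hspb1 was lower in FB-like than in VSMC-like wells in 14 of 14 and Hspa5 higher in 14 of 14. Of the other 8 genes, Hsph1 was higher in FB-like wells in 12 of 14 portions, Dnajb1 and Hspe1 in 10, Hspa1a in 8 and Hspa1b in 7. Hspa8 was lower there in 12, Hsp90aa1 in 11 and Hspd1 in 9. The test between the classes takes its fold change from the uninjured portions. It did not call these 8 genes, Hsph1 coming nearest at 1.15 ± 0.47 (edgeR adjusted p = 0.130). The background of this test was 7.73% of 16039 genes higher and 6.5% lower in FB-like wells. Among the 10 genes, the calls of Hspa5 toward higher and Hspb1 toward lower levels were a share near it. The share of all genes with the same direction in all 14 portions was not counted, nor that of genes whose classes did not overlap.

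**Figure D5:**
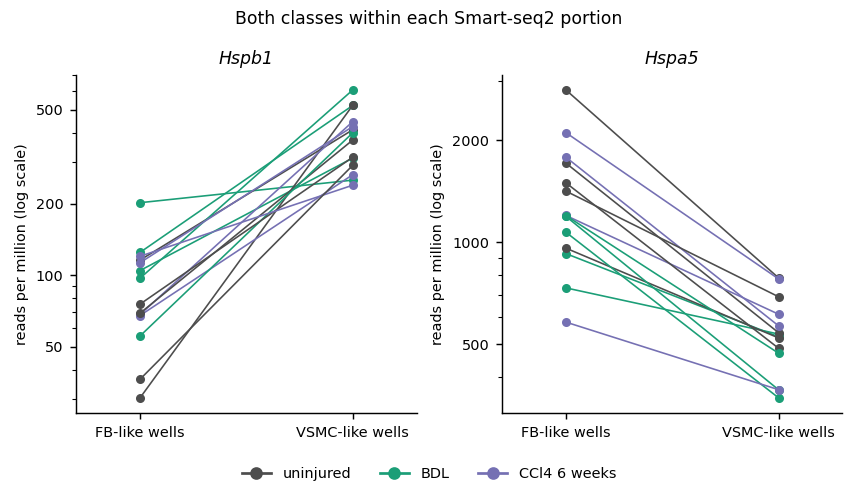
RPM of Hspb1 (left) and Hspa5 (right) in FB-like and VSMC-like wells of each of the 14 Smart-seq2 portions of plates 1 to 5 (log scale), with a line joining the 2 classes of 1 portion and colours for the condition. Every line rises toward VSMC-like wells for Hspb1 and falls for Hspa5.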

How the data were processed

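The authors deposited UMI counts per gene and cell for the 5 10x libraries (Single Cell 3' v2, Cell Ranger 2.1.0, mm10) and read counts per gene and well for the Smart-seq2 plates (STAR, mm10), neither of them normalised. Cells under 300 genes or over 30% mitochondrial UMIs were left out, and 5454 to 7310 cells per library remained. The heat shock genes and all listed genes were kept out of the 2000 variable genes used for clustering (10 principal components, Leiden, leidenalg 0.10.2). Classes came from a resolution of 0.02, chosen after clusters at 0.8 had been seen, and were named from markers. Doublets were called by simulation at 0.8% per 1000 cells and kept, and leaving them out was an alternative. CPM were UMIs of a gene per 1000000 UMIs of the class, with exact Poisson intervals, and ratios had exact conditional binomial intervals. With 1 library per group there was no test.

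Wells beyond 3 median absolute deviations were left out, and reads were summed per portion of at least 5 wells. edgeR 4.0.16 (quasi-likelihood, TMM, filterByExpr, R 4.3.3) was fitted over all genes and the 14 portions of plates 1 to 5, with plate as a term because the labels put an uninjured mouse on each plate, and Benjamini-Hochberg adjustment at 0.05. DESeq2 1.42.0 was an alternative. FB-like and VSMC-like wells of a portion were compared in a fit with portion as a block, added after seeing the data, with UMI and read depth given in the report. The edgeR fit with plate as a term was first run on simulated counts of all wells, with genes changed under BDL. The fit with portion as a block and DESeq2 were not run on simulated counts. Plate 6 was in no test. The authors' STAR settings for reads shared by near-identical genes are not given in the sources used here, and HSP70 copies are therefore also given as a sum.

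The 10 genes and all gene lists were chosen with earlier results of these data known. All 10 genes are named, and of other lists the genes with the largest changes each way. Intervals and limits cover counting error only. The 6-week value of 1 listed gene in HSC-like cells is not reported here.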

Additional observations from a re-analysis of the deposited data

Results flagged for a closer look

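Sets of 4 or 5 Smart-seq2 portions were checked for a portion whose gap to the others was large for their range. Chance alone gives such a gap in about 1 in 20 independent sets. The sets here shared portions and wells, so their share cannot be read against that rate. Of the 90 sets, 6 held such a portion. The uninjured portion of plate 1 gave 3 of these: Hspa1a over all wells was at 1639 RPM against 172.8 to 484.9 in the other uninjured portions, Hspa1a in FB-like wells at 2315 RPM against 182.0 to 603.3, and Hspa1b in FB-like wells at 108.0 RPM against 7.825 to 29.85. Dnajb1 in that portion, at 446.5 RPM over all wells, was the highest of the uninjured portions. Hspe1 over all wells of the uninjured portion of plate 2 was at 38.38 RPM against 13.5 to 20.03.

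Among BDL portions, Dnajb1 in FB-like wells of plate 4 was at 109.4 RPM against 162.8 to 174.5, and Hspa1b in FB-like wells of the first BDL portion of plate 2 was at 54.67 RPM against 2.538 to 15.99. The 12 wells laid out as controls, which no comparison used, held 129 reads of the 10 genes among 87051 reads, 5 of them of Hspa1a and Hspa1b.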

How the results depend on the processing

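Of the 10x counts of heat shock genes past 1.5-fold, those for HSC-like cells at 72 h (9) and for FB-like against VSMC-like cells (5 and 3) stayed within 1.5 times under every alternative run. A limit of 2 gave 1 in place of 3 in FB-like cells, 0 in place of 1 in VSMC-like and 0 in place of 1 in HSC-like cells at 6 weeks. Leaving out doublets gave 2 in VSMC-like cells, and all cells of the protocol 1 libraries gave 4. Median scaling gave 2 in HSC-like cells at 6 weeks and ended the 6-week difference of Hsp90aa1 between FB-like and VSMC-like cells (0.670).

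In Smart-seq2, fits without plate as a block called 43 genes for BDL and 26 for CCl4 over all wells, 23 for BDL with FB-like wells, 32 for BDL in VSMC-like wells, with 1 heat shock gene, Dnajb1, over all wells (adjusted p = 0.0162) and 1 in VSMC-like wells (0.0182). DESeq2 called 598, 398, 412 and 435 genes, and 184 and 257 for CCl4 by class, with 5 heat shock genes for BDL over all wells, 1 in FB-like wells, 2 in VSMC-like wells and 1 for CCl4 in VSMC-like wells. No filter gave 32, 16, 274 and 136 genes, and 35 and 13 for CCl4 by class, with 1 heat shock gene for BDL over all wells and 3 in each class. Why the tools differ was not tested. Leaving out 1 portion or plate in turn called 0 to 3 genes for BDL over all wells, 0 to 4 for CCl4, 0 to 6 for BDL in FB-like wells (6 without the uninjured portion of plate 4) and 0 to 23 in VSMC-like wells (23 without either portion of plate 4), with 0 heat shock genes in each.

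Without plate as a block, CCl4 log2 fold changes over all wells turned to -0.084 for Dnajb1, -0.42 for Hsph1, -0.19 for Hsp90aa1, -0.045 for Hspd1 and -0.40 for Hspe1, and Hsph1 in VSMC-like wells to -0.11. Hspb1 for BDL in VSMC-like wells turned to -0.0049 with all wells that had a read. Leaving out portions turned the sign for Hspb1 under BDL (-0.040 to 0.37 over all wells, -0.11 to 0.20 in VSMC-like wells) and under CCl4 for Hspa1a (-1.16 to 1.07), Dnajb1 (-0.12 to 0.22), Hspa8 (-0.19 to 0.080), Hspa5 (-0.11 to 0.46) and Hspd1 (-0.019 to 0.44). No other sign of a heat shock gene turned for BDL or for CCl4 over all wells. For CCl4 by class, signs under these alternatives are given for Hsph1 in VSMC-like wells alone. The 10x values rest on 1 library per group, and depth limits only their counting intervals.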

Other observations

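Plate 6 held 3 uninjured portions that the labels give to both protocols without saying which. In the portions called Uninjured 2 and Uninjured 3, every clustered well kept was HSC-like (154 and 158 wells), and Hspb1 was at 7.454 and 13.76 RPM there, against 219.3 RPM in Uninjured 1, whose 53 wells were FB-like, VSMC-like or unnamed. Hspa1a was at 227.4 and 239.6 RPM in the HSC-like portions and at 128.4 RPM in Uninjured 1, Dnajb1 at 409.2 and 304.9 RPM in the former, and Hspa5 at 1517 and 1429 RPM against 2343 RPM. In the 10x libraries, uninjured HSC-like cells held Hspb1 at 252.4 CPM and uninjured FB-like cells at 308.1 CPM.

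Within uninjured HSC-like cells, Hspa8 and Hsp90aa1 had a Pearson correlation of 0.366 across cells, and the HSP70 sum and Hspa8 one of 0.319, at 72 h these were 0.0240 and 0.0294, and at 6 weeks 0.302 and 0.283. At 72 h the HSP70 sum was at 18.68 CPM, and an Hspa1a UMI was found in 12.1% of cells. The tenth of uninjured HSC-like cells with the most Hspa1a held 54.9% of its UMIs. Genes outside the lists were ranked by their lowest correlation with the HSP70 sum over the classes of the 5 libraries. Of 4255 genes, Postn came first at 0.0351, before Capg (0.0219), Ccdc80 (0.0218), Mrps6 (0.0189) and Eif4a1 (0.0187). The 72 h cells, with few HSP70 UMIs, enter this minimum, so it cannot show whether a gene was alike in a single class or library. Across 17 Smart-seq2 portions and 7502 genes, the 5 nearest were Acot2 (0.759), Pou2f1 (0.744), Akap11 (0.692), Rps6ka3 (0.681) and Herpud2 (0.674). Without the portion highest in HSP70 these were 0.765, 0.660, 0.579, 0.439 and 0.538. The portions share plates and depth, and these correlations are descriptions.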
